A study of Mus musculus with 6 samples.

Results

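The cell-cycle inhibitors and D-type cyclins of the mouse were followed in label-retaining chondrocytes (LRCs) and non-label-retaining chondrocytes (non-LRCs) of the growth plate. The members were the rows of the raw count table for the 3 Cip/Kip inhibitor genes (*Cdkn1a*, *Cdkn1b* and *Cdkn1c*), the 4 INK4 inhibitor genes (*Cdkn2a*, *Cdkn2b*, *Cdkn2c* and *Cdkn2d*) and the 3 D cyclin genes (*Ccnd1*, *Ccnd2* and *Ccnd3*), chosen by name, which makes 10 of the 23159 genes in the table. The study set out to isolate slowly dividing cells of the resting zone and compare their RNA with that of faster-dividing neighbors. In its test with EdU, a label of dividing cells, a smaller share of LRCs than of non-LRCs was labeled. The paper reports this difference as significant at earlier ages but not at P49, the age of these libraries. Each of 3 experiments gave 1 LRC and 1 non-LRC library, so that n = 3 libraries for each group. All mice were Col2-Q animals at P49 and were homozygous for 4 alleles, which the labels give as Peli2(Col2a1-tTA), Col1a1(TRE-H2B-GFP), Col2a1-creER and R26R(tdTomato). Both groups had received doxycycline from P21 to P49, which stops new H2B-GFP synthesis, and tamoxifen at P46 and P47. The *Col2a1* promoter drives both tTA and creER, so that the tdTomato label marks cells in which it was active around the tamoxifen doses, while TRE-H2B-GFP can be expressed at a low level without tTA in bone cells, as control mice of the study showed. LRCs were sorted as H2B-GFP(high) tdTomato+ cells, about 10000 per library, and non-LRCs as H2B-GFP(mid-low) tdTomato+ cells, about 50000 per library. Cells of several littermates were pooled in each experiment, and the sort itself separated cells by H2B-GFP brightness, which division dilutes.

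Progression through G1 depends on the kinases CDK4 and CDK6, which are switched on by a D cyclin, and on CDK2, which is switched on by an E cyclin. These kinases phosphorylate the retinoblastoma protein and so release E2F transcription factors that drive DNA replication genes. INK4 proteins bind CDK4 and CDK6 and block the pairing with D cyclins, whereas Cip/Kip proteins bind cyclin-CDK complexes and inhibit CDK2 in particular. In growth plate cartilage, D cyclins and *Cdkn1c* (p57) are known for their part in the balance between chondrocyte division and exit from the cycle.

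The first bases of the D cyclin coding sequences are shown because *Ccnd2* was the only member that passed the test, and because reads of its close relatives have to be told apart from its own. Each line holds the first 60 coding bases, 5′ to 3′, and the capitals mark the codons of the LxCxE motif through which D cyclins bind the retinoblastoma protein, found by translation at codons 5 to 9 of *Ccnd1* and codons 3 to 7 of *Ccnd2* and *Ccnd3*.
Ccnd1: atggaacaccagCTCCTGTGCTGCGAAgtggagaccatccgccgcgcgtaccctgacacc
Ccnd2: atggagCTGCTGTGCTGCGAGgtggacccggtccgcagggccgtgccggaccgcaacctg
Ccnd3: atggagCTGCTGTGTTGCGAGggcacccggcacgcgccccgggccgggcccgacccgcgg
The whole coding sequences were 888 bases for *Ccnd1*, 870 bases for *Ccnd2* and 879 bases for *Ccnd3*. *Ccnd2* was identical to *Ccnd1* at 67.1% of aligned positions and to *Ccnd3* at 66.3%. The longest run shared with *Ccnd1* was 20 bases and the longest shared with *Ccnd3* was 14 bases, both shorter than the 50-base reads.

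The members lie on 5 mouse chromosomes (GRCm38). *Ccnd2* is on chromosome 6 at 127125162 to 127152193 on the minus strand, and its principal transcript has 5 exons and 6330 bases. *Cdkn2a* at 89274471 to 89294653 and *Cdkn2b* at 89306299 to 89311039 are neighbors on the minus strand of chromosome 4, with 11645 bases between them, and *Cdkn2c* is on the same chromosome at 109660876 to 109667189. *Cdkn2d* is on chromosome 9 at 21288410 to 21291407. *Cdkn1c* and *Ccnd1* share chromosome 7, *Cdkn1a* and *Ccnd3* share chromosome 17, and *Cdkn1b* is on the chromosome of *Ccnd2*. All 10 are annotated as protein-coding. No 50-base stretch of a member's transcript occurred in another member. For *Ccnd3*, 6.93% of the 50-base stretches also occurred in the pseudogene *Ccnd3-ps*. Exons of *Ccnd1* (27.2% of its stretches, shared with *LTO1*), *Cdkn1c* (26.6%, with *Gm44732*), *Ccnd3* (14.7%, with *Bysl*), *Cdkn1a* (10.5%, with *AC167363.2*) and *Ccnd2* (5.17%, with *9330179D12Rik* or *Gm43126*) overlapped other genes, and since the strand setting of the counting is not given in the sources used here, reads in those stretches cannot be assigned with certainty.

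The libraries held between 18943789 and 129559872 counts, the fewest in the LRC library of experiment 2, where 1731 of the 13728 tested genes had no count. *Col2a1*, the main cartilage collagen, took 7.003% to 17.4% of all counts in every library. Of the 13 chondrocyte markers tested, 12 had lower values in LRCs (median log2 fold change -0.50), 11 of them in all 3 experiments, and 7 had an unadjusted p below 0.05, while none passed after adjustment. Their summed level was lower in the LRC library of every pair, at 247687, 95736 and 178343 CPM (read counts scaled for the size of the library) against 266450, 156336 and 182740 CPM. The background for the chondrocyte marker counts, and for those of the lists that follow, is all 13728 tested genes. Of these genes, 7690 had a fold change below 0 and 6038 above it. For 26% of them each LRC library stood below its partner, and 9.53% had an unadjusted p below 0.05 in that direction. After adjustment 0.379% passed as lower. The 7 markers of superficial articular and synovial cells had a summed level of 3091, 1464 and 3001 CPM in the LRC libraries. In non-LRC libraries it was 205, 178 and 143 CPM. Of the 7 genes, 6 had higher values in LRCs and 4 passed the test as higher, as did 0.903% of all tested genes. *Tppp3* had a log2 fold change of -0.13. The paper detected *Prg4*, 1 of these markers, faintly in the resting zone. It also traced nearly all tdTomato+ cells released by digestion to the growth plate. *Clu* was the most abundant of the list. All 6 hypertrophic markers had lower values in LRCs (median -1.94), 4 with an unadjusted p below 0.05, and 1 of them, *Panx3*, passed after adjustment. The summed hypertrophic level was lower in the LRC library of each pair, at 793, 1938 and 1590 CPM against 999, 2341 and 2646 CPM. Of the 7 osteoblast markers, 5 had lower values in LRCs (median -0.89), 3 of them in all experiments and with an unadjusted p below 0.05 (*Bglap*, *Bglap2* and *Sp7*), whereas *Col1a1* passed as higher. Their summed level was 228, 131 and 299 CPM in the LRC libraries and 133, 180 and 428 CPM in their partners. The part of these markers in the results below was not tested. Muscle markers summed to at most 14.7 CPM, blood markers to at most 28.5 CPM and endothelial markers to at most 0.681 CPM in any library, with 3 of the 5 endothelial markers at 0 in every library. In sorted bulk cells, a lower share of a cell type and less RNA per cell cannot be told apart.

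Levels are given as CPM after TMM normalization, and changes as the log2 fold change of LRCs over non-LRCs from the edgeR quasi-likelihood fit with the experiment as a block, with its SE and the Benjamini-Hochberg adjusted p over all 13728 genes tested. Of these genes, 176 (1.28%) had an adjusted p below 0.05, 124 higher in LRCs (0.903%) and 52 lower (0.379%). Of the 10 members, 9 had enough counts to be tested and 1 of the 9, *Ccnd2*, passed. The remaining 8 did not reach the threshold, which does not show that their levels were equal. In 6 of the 9, the 3 experiments pointed in the same direction, against 46.4% of all tested genes, and in 4 of the 9 the LRC and non-LRC libraries did not overlap, against 18.7% of all tested genes.

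*Ccnd2*, which encodes cyclin D2, a partner of CDK4 and CDK6, was 5.07-fold higher in LRCs. It stood at 38.0, 62.8 and 31.3 CPM in the LRC sorts of experiments 1, 2 and 3 and at 10.9, 12.9 and 4.02 CPM in the non-LRC libraries. The lowest LRC library was above the highest non-LRC library. The mean over LRC libraries was 44.04 ± 16.6 CPM, against 9.27 ± 4.64 CPM over non-LRC libraries (SD, n = 3 each). The fitted log2 fold change of *Ccnd2* was 2.34 (SE 0.29, 95% interval 1.64 to 3.04, adjusted p = 0.0331), and within experiments the log2 difference was 1.80, 2.29 and 2.95. Counts behind these values ran from 200 to 4437 reads. Without the block for the experiment, the fold change of *Ccnd2* was nearly as large (log2 2.25) but the adjusted p was 0.201, and the whole table held 1 gene below 0.05. The summed superficial markers were also higher in LRCs. Among the LRC libraries *Ccnd2* was highest in experiment 2, where the summed superficial markers were lowest. Among the non-LRC libraries *Ccnd2* was also highest in experiment 2. The superficial sum was 3091, 1464 and 3001 CPM in the LRC libraries of experiments 1, 2 and 3. In their non-LRC partners the sum was 205, 178 and 143 CPM. The log2 difference of *Ccnd2* was largest in experiment 3, where the non-LRC sum was lowest. *Clu*, the most abundant of these markers, was at 974, 982 and 931 CPM in the LRC libraries of experiments 1, 2 and 3. The part of the superficial markers in the difference of *Ccnd2* was not tested.

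*Ccnd1*, which encodes cyclin D1, was the most abundant D cyclin. It was counted at 274, 222 and 259 CPM in LRCs and at 217, 222 and 150 CPM in non-LRCs. The groups did not overlap, but in experiment 2 the libraries were almost level, with a log2 difference of 0.0033 against 0.34 and 0.79 in experiments 1 and 3. The fitted log2 fold change of *Ccnd1* was 0.38 (SE 0.19, 95% interval -0.08 to 0.83, adjusted p = 0.349), and it was 0.19 without experiment 3.

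*Ccnd3*, which encodes cyclin D3, stood at 35.2, 27.8 and 33.5 CPM in LRCs and at 23.0, 14.8 and 27.7 CPM in non-LRCs. The lowest LRC library and the highest non-LRC library were nearly equal, without overlap. The fit gave *Ccnd3* a log2 fold change of 0.60 (SE 0.22, 95% interval 0.06 to 1.13, adjusted p = 0.227). All 3 D cyclins were thus above the non-LRC libraries in every LRC library, an order that 8.41% of all tested genes had, and all 3 were higher in every experiment, as were 20.4% of all tested genes. *Ccnd2* and *Ccnd3* had an unadjusted p below 0.05, as did 8.89% of all tested genes in that direction.

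**Figure D1:**
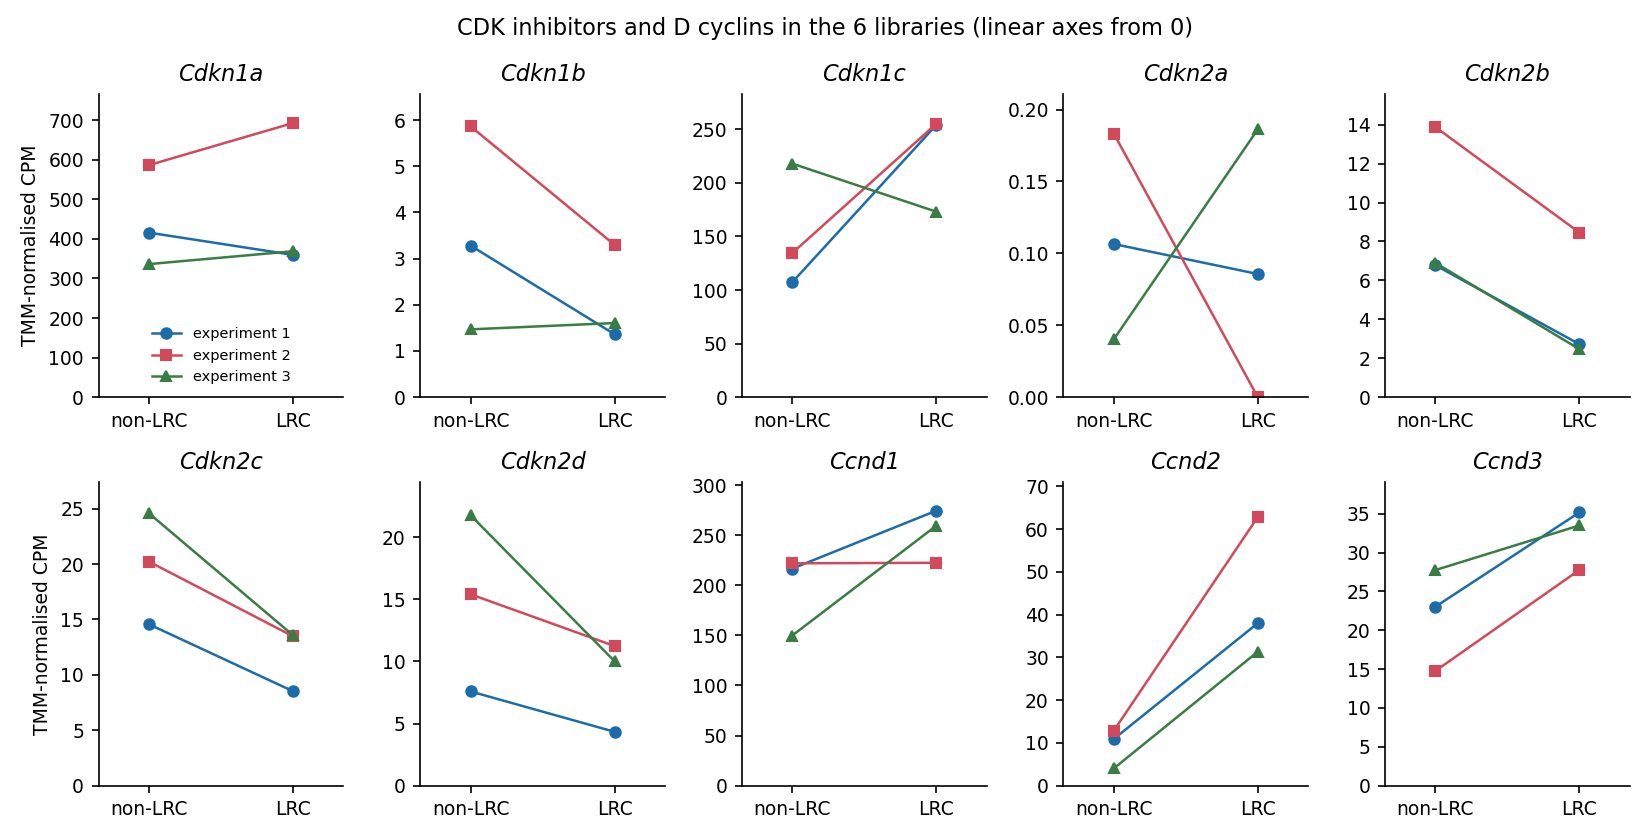
Each panel plots 1 member, with the group on the x axis and TMM-normalised CPM on the y axis (linear, from 0, a different range in each panel), and a line joins the 2 libraries of an experiment. All 3 lines rise for *Ccnd2*, from 4.02 to 12.9 CPM in non-LRCs to 31.3 to 62.8 CPM in LRCs, and all 3 fall for *Cdkn2b*, *Cdkn2c* and *Cdkn2d*.

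The INK4 genes had lower values in LRCs wherever they could be tested, but none passed the test over all genes. *Cdkn2b* (p15), whose protein mediates arrest by TGF-beta, was at 2.72, 8.46 and 2.47 CPM in LRCs and at 6.78, 13.9 and 6.90 CPM in non-LRCs. Experiment 2 was higher than the other experiments in both groups, so that the groups overlapped while each pair pointed the same way. For *Cdkn2b* the fitted log2 fold change was -1.17 (SE 0.38, 95% interval -2.10 to -0.24, adjusted p = 0.187), which corresponds to a 2.25-fold lower level.

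*Cdkn2c* (p18) was at 8.52, 13.5 and 13.6 CPM in LRCs and at 14.6, 20.2 and 24.6 CPM in non-LRCs. Every LRC library was below every non-LRC library, an order that 10.3% of all tested genes had. The log2 fold change of *Cdkn2c* was -0.74 (SE 0.24, 95% interval -1.32 to -0.15, adjusted p = 0.185).

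*Cdkn2d* (p19Ink4d) was at 4.33, 11.2 and 10.01 CPM in LRCs and at 7.58, 15.4 and 21.8 CPM in non-LRCs. Experiment 1 was the lowest in both groups, and the groups overlapped. The fit gave *Cdkn2d* a log2 fold change of -0.79 (SE 0.29, 95% interval -1.51 to -0.08, adjusted p = 0.228). All 3 tested INK4 genes were lower in LRCs in every experiment, as were 26% of all tested genes, and all 3 had an unadjusted p below 0.05, as did 9.53% of all tested genes in that direction.

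*Cdkn2a*, whose row holds the products p16Ink4a and p19Arf, had too few counts to be tested. There were 10, 0 and 8 reads in the LRC libraries and 11, 7 and 2 reads in the non-LRC libraries, which is at most 0.186 CPM. The count of 0 in the LRC library of experiment 2 allows up to 3 reads, or 0.143 CPM at that depth. No difference of *Cdkn2a* was detectable at these counts, and its 2 products cannot be separated in gene counts.

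The sequences before the 3 tested INK4 genes are shown because these genes had their lower values together. RefSeq (GRCm38.p6) gave promoter sequence for 7 of the 10 members, at 11 start sites. Each line runs 5′ to 3′ on the minus strand, from 250 bases before the start to 50 after it. Capitals mark, on either strand, the GC box GGGCGG, the CCAAT box and the E2F-type motif GCGGGA, of which the GC box and the E2F-type motif can overlap.
Cdkn2b (chr4:89310983-89311282): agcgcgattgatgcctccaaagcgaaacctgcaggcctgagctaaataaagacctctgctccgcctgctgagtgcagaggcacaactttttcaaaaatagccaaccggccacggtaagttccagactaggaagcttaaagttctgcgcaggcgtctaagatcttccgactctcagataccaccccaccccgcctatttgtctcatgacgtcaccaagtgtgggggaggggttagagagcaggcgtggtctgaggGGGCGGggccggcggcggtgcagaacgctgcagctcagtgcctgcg
Cdkn2c (chr4:109666707-109667006): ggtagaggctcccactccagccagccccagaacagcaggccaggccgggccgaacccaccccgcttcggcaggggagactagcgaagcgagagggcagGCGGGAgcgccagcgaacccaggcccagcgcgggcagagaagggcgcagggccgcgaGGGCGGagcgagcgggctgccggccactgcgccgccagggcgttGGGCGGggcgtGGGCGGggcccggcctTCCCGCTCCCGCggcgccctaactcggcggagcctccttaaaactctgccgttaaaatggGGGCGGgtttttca
Cdkn2d (chr9:21291160-21291459): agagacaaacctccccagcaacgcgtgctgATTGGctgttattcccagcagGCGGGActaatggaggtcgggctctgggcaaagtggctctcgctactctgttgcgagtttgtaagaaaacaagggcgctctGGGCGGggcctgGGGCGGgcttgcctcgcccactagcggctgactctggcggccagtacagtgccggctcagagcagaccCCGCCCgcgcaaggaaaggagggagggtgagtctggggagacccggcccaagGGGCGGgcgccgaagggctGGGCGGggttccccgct
The *Cdkn2b* window held 1 GC box, the *Cdkn2c* window 4 and the *Cdkn2d* window 5, and 35.7% of all 32851 RefSeq mouse promoters held at least 1. The E2F-type motif occurred 3 times before *Cdkn2c*, once before *Cdkn2d* and not in the *Cdkn2b* window, against 20% of all promoters. A CCAAT box was found only in the *Cdkn2d* window of these 3, against 37.4% of all promoters. *Cdkn2c* has another start site in RefSeq, at which the window held a CCAAT box and no GC box. *Cdkn2a*, which could not be tested and is not shown, held 3 GC boxes and 5 E2F-type motifs at 1 start site. At its other start site the window held 1 GC box, 1 CCAAT box and no E2F-type motif. These are matches of letters, and the RNA counts do not show which factors bind there.

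The Cip/Kip genes held the most and nearly the fewest reads of all members. *Cdkn1a* (p21), the classical p53 target, was at 360, 693 and 369 CPM in LRCs and at 416, 587 and 336 CPM in non-LRCs. Experiment 2 was the highest in both groups, and the direction differed between experiments. The log2 fold change of *Cdkn1a* was 0.05 (SE 0.15, adjusted p = 0.879), and its 95% interval of -0.32 to 0.43 lies within a change of 1 on this scale in either direction.

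*Cdkn1c* (p57), an imprinted gene, was at 254, 255 and 173 CPM in LRCs and at 107, 134 and 218 CPM in non-LRCs. It was higher in LRCs in experiments 1 and 2 (log2 difference 1.24 and 0.92) and lower in experiment 3 (-0.33). For *Cdkn1c* the fitted log2 fold change was 0.62 (SE 0.31, 95% interval -0.15 to 1.39, adjusted p = 0.360). Without experiment 3 it was 1.10 and passed (adjusted p = 0.0379), and without experiment 1 it was 0.29 (adjusted p = 0.788).

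*Cdkn1b* (p27), the inhibitor that many cells accumulate on leaving the cycle, was listed at only 1.36, 3.30 and 1.61 CPM in LRCs and at 3.28, 5.86 and 1.47 CPM in non-LRCs, from 69 to 339 reads per library. The groups overlapped, and experiment 3 went against the other experiments. For *Cdkn1b* the fitted log2 fold change was -0.66 (SE 0.63, 95% interval -2.20 to 0.87, adjusted p = 0.627), the widest interval of the tested members. It was -0.36 without experiment 1 and -1.03 without experiment 3.

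**Figure D2:**
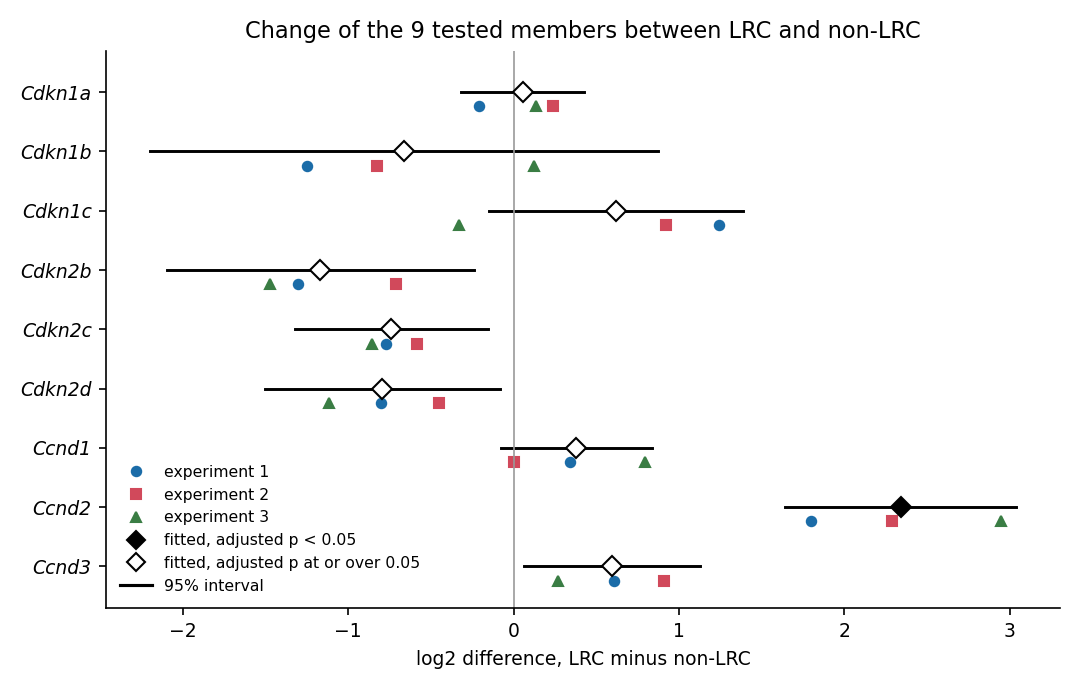
The x axis gives the log2 difference of LRCs minus non-LRCs and the y axis the 9 tested members, with diamonds for the fitted value, lines for its 95% interval and small symbols below for the 3 experiments. Only *Ccnd2*, at 2.34 with an interval of 1.64 to 3.04, has a filled diamond (adjusted p below 0.05), and *Cdkn1c* has experiments on both sides of 0.

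To compare members with one another, CPM was divided by the length of the principal transcript in kilobases. In LRCs the order from the highest mean was *Cdkn1a* (228 ± 91.2 CPM per kb, SD, n = 3), *Cdkn1c* (120 ± 24.7), *Ccnd1* (67.4 ± 7.15), *Ccnd3* (15.2 ± 1.84), *Ccnd2* (6.96 ± 2.62), *Cdkn2d* (5.99 ± 2.59), *Cdkn2c* (4.80 ± 1.17), *Cdkn2b* (3.27 ± 2.44), *Cdkn1b* (0.459 ± 0.232) and *Cdkn2a* (0.101 ± 0.104). The first 4 were separated from their next neighbor in all 3 libraries with no overlap of the ranges. From *Ccnd2* to *Cdkn2b* each gene overlapped with the next, and *Cdkn1b* and *Cdkn2a* followed without overlap. In non-LRCs *Ccnd2* ranked eighth, at 1.46 ± 0.733 CPM per kb, below all 3 tested INK4 genes and with no overlap with *Cdkn2b* (6.61 ± 2.92), the next above it, while it overlapped with *Cdkn1b* (0.777 ± 0.485) below it. There *Cdkn1c* (80.6 ± 30.4) and *Ccnd1* (52.4 ± 10.7) overlapped, as did *Cdkn2d* (10.5 ± 4.99), *Ccnd3* (10.3 ± 3.11), *Cdkn2c* (8.01 ± 2.03) and *Cdkn2b* in succession.

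**Figure D3:**
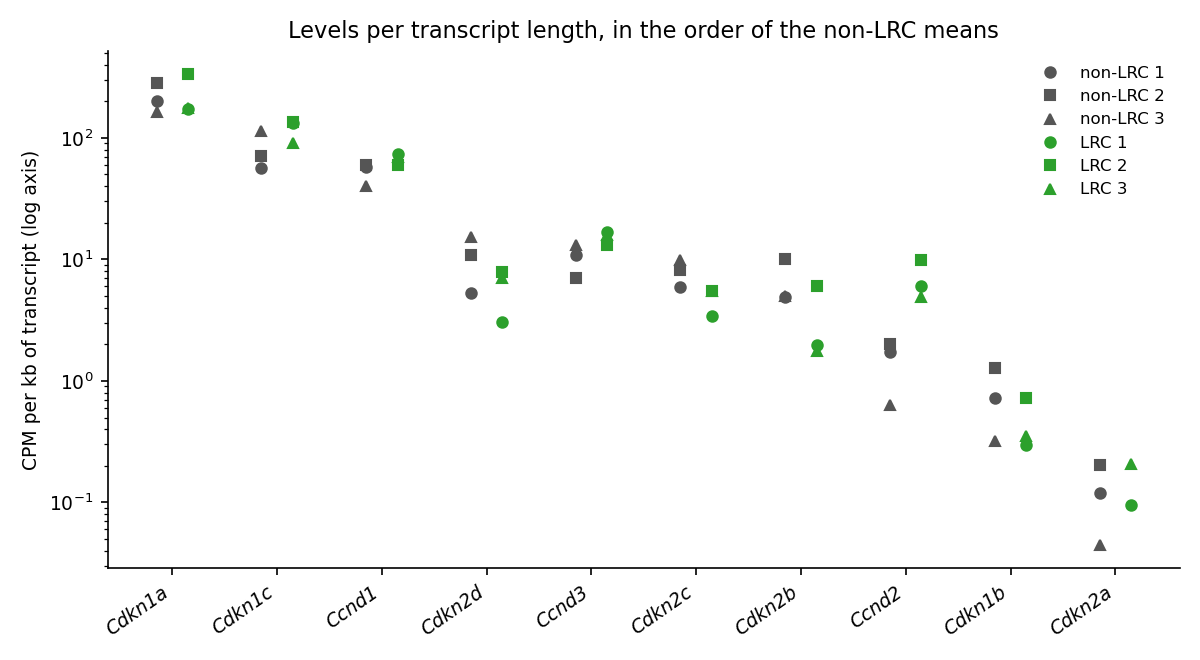
The y axis (logarithmic) gives CPM per kilobase of transcript and the x axis the members in the order of their non-LRC means, with gray symbols for non-LRC and green for LRC libraries and 1 symbol shape per experiment. *Ccnd2* lies between 0.636 and 2.03 CPM per kb in non-LRCs and between 4.95 and 9.92 in LRCs, and the LRC library with no *Cdkn2a* read is not drawn.

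The share of each D cyclin in their summed level per kilobase does not depend on the scaling between libraries. *Ccnd2* made up 6.25%, 12.0% and 5.49% of it in LRCs and 2.44%, 2.97% and 1.18% in non-LRCs. The share of *Ccnd2* was higher in LRCs in 3 of 3 experiments, by 5.72 percentage points on average, and the exact sign-flip permutation test (two-sided) gave p = 0.25, the smallest that 3 pairs allow. *Ccnd1* made up 76.4%, 72.1% and 76.9% in LRCs and 82.1%, 86.8% and 74.4% in non-LRCs, with experiment 3 against the other experiments (exact p = 0.5). Without scaling by length the *Ccnd1* share was lower in LRCs in all 3 experiments, with differences of -7.50, -17.9 and -2.49 percentage points (exact p = 0.25). The *Ccnd3* share was 17.3%, 15.9% and 17.6% in LRCs and spread from 10.2% to 24.4% in non-LRCs (exact p = 1). *Ccnd1* was the main D cyclin transcript in all 6 libraries.

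The summed D cyclin level was 96.0, 82.6 and 90.2 CPM per kb in LRCs and 70.6, 68.4 and 53.8 in non-LRCs, without overlap. The summed INK4 level was 8.55, 19.4 and 14.5 CPM per kb in LRCs and 16.2, 29.2 and 30.2 in non-LRCs, lower in each LRC library than in its partner. Over all 7 inhibitors the sum was 315, 487 and 283 CPM per kb in LRCs and 273, 383 and 307 in non-LRCs, which overlapped. *Cdkn1a* and *Cdkn1c* together dominated that sum, with *Cdkn1a* at 52.7% to 73.6% and *Cdkn1c* at 18.5% to 42.4% of it in any library. The log2 ratio of the D cyclin sum over the inhibitor sum was -1.72, -2.56 and -1.65 in LRCs and -1.95, -2.49 and -2.51 in non-LRCs, and the groups overlapped.

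**Figure D4:**
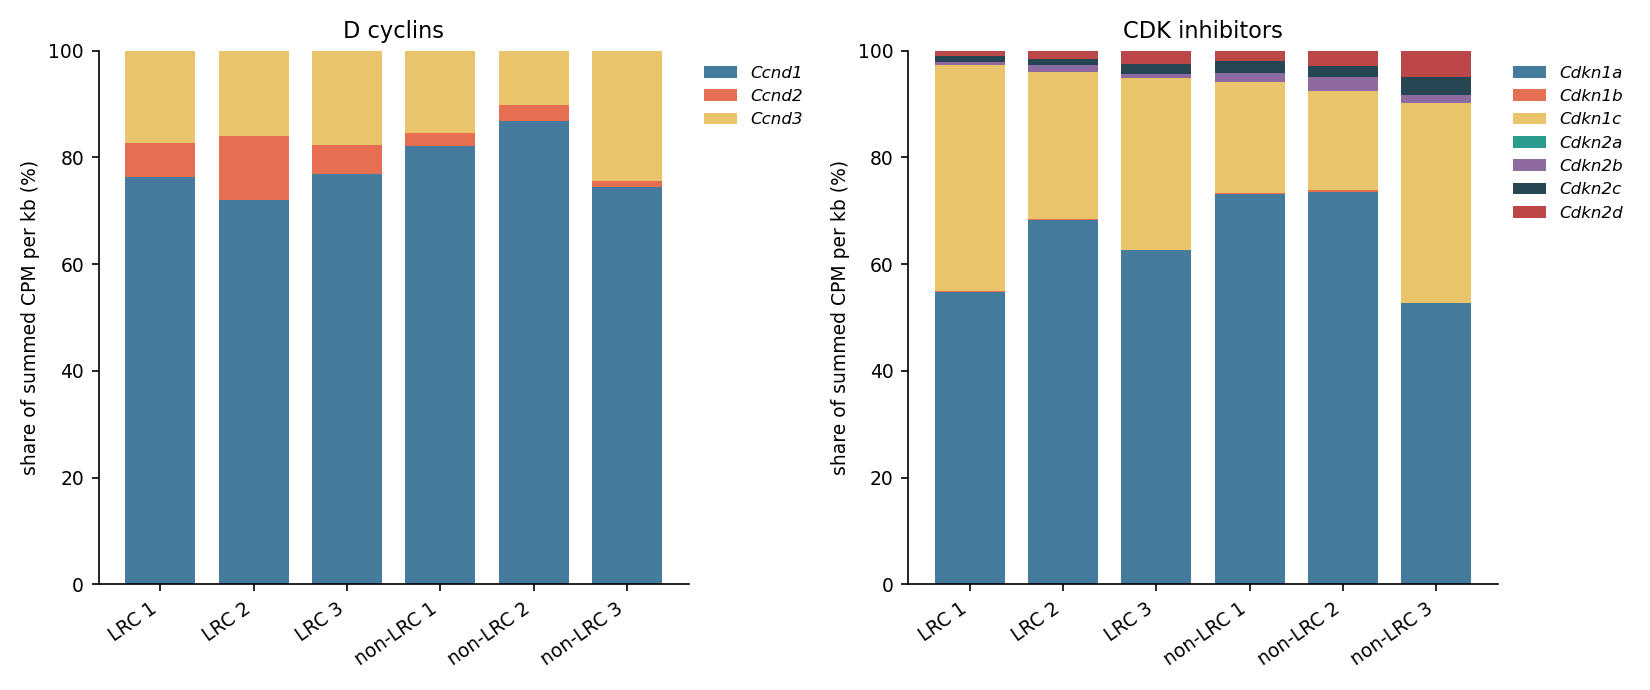
Stacked bars give, for each library on the x axis, the share in percent of each D cyclin (left) and each inhibitor (right) in their summed CPM per kilobase. *Ccnd2* takes 5.49% to 12.0% of the D cyclin bar in LRCs and 1.18% to 2.97% in non-LRCs, and *Cdkn1a* and *Cdkn1c* fill most of every inhibitor bar.

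The 3 tested genes whose log2 CPM followed *Ccnd2* most closely over the 6 libraries were *Prkd1* (Pearson r = 0.993), *Socs5* (r = 0.992) and *Hexa* (r = 0.992). These correlations describe libraries that share the split into groups. The log2 fold change was 0.95 for *Prkd1* (adjusted p = 0.0814), 0.92 for *Socs5* (adjusted p = 0.0489) and 0.39 for *Hexa* (adjusted p = 0.196), all smaller than that of *Ccnd2*.

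The partners and targets of the members were read from 9 lists with 128 genes, of which 125 were tested. None had an adjusted p below 0.05 in the edgeR fit, whereas 29 had an unadjusted p below 0.05 (18.4% of all tested genes did so), and DESeq2 with the block called 20 of them (12.4% of the 13685 genes with an adjusted p in that fit were called) and limma-voom with the block 16 (9.91% of 13728 genes were called). Of the 125, 77 had a fold change below 0 and 48 above it. Over all 13728 tested genes, 7690 were below 0 and 6038 above it, the background for the counts of each list below. The median over all tested genes was -0.10 on the log2 scale.

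Among the 10 G1 kinases and their partners, 9 had lower values in LRCs and the median of the log2 changes was -0.42. *Cdk4*, the kinase that D cyclins switch on and INK4 proteins block, was at 64.9, 72.6 and 86.4 CPM in LRCs and at 123, 140 and 147 CPM in non-LRCs. Its groups were well apart, and its log2 fold change of -0.88 (SE 0.14, adjusted p = 0.0524) just missed the threshold. *Cdk6*, its relative, was at 7.39, 14.9 and 6.59 CPM in LRCs and at 24.5, 19.0 and 9.76 CPM in non-LRCs (a log2 change of -0.88, SE 0.36, adjusted p = 0.271). DESeq2 called 1 gene of the list, *Cdk4*, and limma-voom called *Cdk4* and *Cdk6*.

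Of the 13 genes for pocket proteins, E2F factors and their partners, 6 had higher and 7 lower values (median -0.21). *Rbl2* (p130), the pocket protein most associated with resting cells, was at 39.9, 15.2 and 31.3 CPM in LRCs and at 10.8, 11.5 and 15.2 CPM in non-LRCs (a log2 change of 1.11, SE 0.33, adjusted p = 0.1598). DESeq2 and limma-voom each called *Rbl2* and no other gene of the list. *E2f8*, a repressor E2F, was at 9.87, 3.97 and 23.6 CPM in LRCs and at 25.9, 19.8 and 22.0 CPM in non-LRCs (a log2 change of -1.19, SE 0.49, adjusted p = 0.271).

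The replication and mitosis lists had medians below that of all genes, and none of their genes passed. The paper, with a different test and its own gene sets, reports significant enrichment in non-LRCs for a number of S-phase and G2/M regulators. Of 20 replication genes, 14 had lower values (median -0.39) and 4 an unadjusted p below 0.05. *Rrm2*, a subunit of ribonucleotide reductase, was at 22.5, 29.3 and 84.6 CPM in LRCs and at 55.8, 80.9 and 124 CPM in non-LRCs (a log2 change of -1.11, SE 0.22, adjusted p = 0.0807). *Ccna2*, the cyclin of S phase and G2, had a log2 fold change of -0.79 (SE 0.19, adjusted p = 0.107). Of 16 mitosis genes, 15 had lower values (median -0.79) and 7 an unadjusted p below 0.05. *Birc5* (survivin) had a log2 fold change of -1.14 (SE 0.25, adjusted p = 0.0911) and *Ube2c*, which feeds the anaphase-promoting complex, one of -1.07 (SE 0.26, adjusted p = 0.115). DESeq2, which called 12.4% of all its genes, called 4 of the replication genes and 6 of the mitosis genes.

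The turnover list holds genes for ubiquitin ligases that act on inhibitors and D cyclins. Of its 15 genes 9 had lower values (median -0.22), and none passed, with 4 at an unadjusted p below 0.05 and 1 called by DESeq2. *Cks1b*, the cofactor with which SKP2 recognizes p27, had a log2 fold change of -0.62 (SE 0.20, adjusted p = 0.185) and *Skp1a*, a core subunit of the same ligase, one of -0.38 (SE 0.13, adjusted p = 0.216).

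The remaining lists hold genes that act on or sit beside the inhibitor genes. Of 18 p53 genes and targets other than *Cdkn1a*, 13 had lower values (median -0.22). *Plk2* was at 143, 95.02 and 139 CPM in LRCs and at 261, 238 and 216 CPM in non-LRCs (a log2 change of -0.95, SE 0.18, adjusted p = 0.0695), without overlap, and *Ccng1*, which encodes cyclin G1, had a log2 fold change of -1.02 (SE 0.23, adjusted p = 0.0989). DESeq2 called 5 of the 18 and limma-voom 4, where they called 12.4% and 9.91% of all their genes. Of 13 tested regulators of the INK4 locus, 8 had higher values (median 0.09). *Bmi1*, the Polycomb repressor of *Cdkn2a*, was at 37.5, 35.5 and 47.9 CPM in LRCs and at 16.7, 21.9 and 31.3 CPM in non-LRCs (a log2 change of 0.82, SE 0.21, adjusted p = 0.117), and *Ezh2* had a log2 fold change of -0.49 (SE 0.30, adjusted p = 0.442). Of these regulators, DESeq2 and limma-voom each called only *Bmi1*.

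Of 11 tested transcription factors of inhibitor genes, 9 had higher values (median 0.29). *Foxo1*, which can activate *Cdkn1b*, was at 517, 308 and 420 CPM in LRCs and at 226, 183 and 146 CPM in non-LRCs, without overlap, with a log2 fold change of 1.16 (SE 0.19, adjusted p = 0.0540). It was the only gene of this list that DESeq2 and limma-voom called. *Smad4*, the shared mediator of TGF-beta and BMP signals, had a log2 fold change of 0.36 (SE 0.15, adjusted p = 0.270). Of the 9 tested neighbors of *Cdkn1c* in its imprinted domain, 6 had higher values (median 0.13). *Cd81* was at 302, 256 and 226 CPM in LRCs and at 168, 243 and 175 CPM in non-LRCs (a log2 change of 0.43, adjusted p = 0.291), and *Tspan32* was at most 1.53 CPM in any library.

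**Figure D5:**
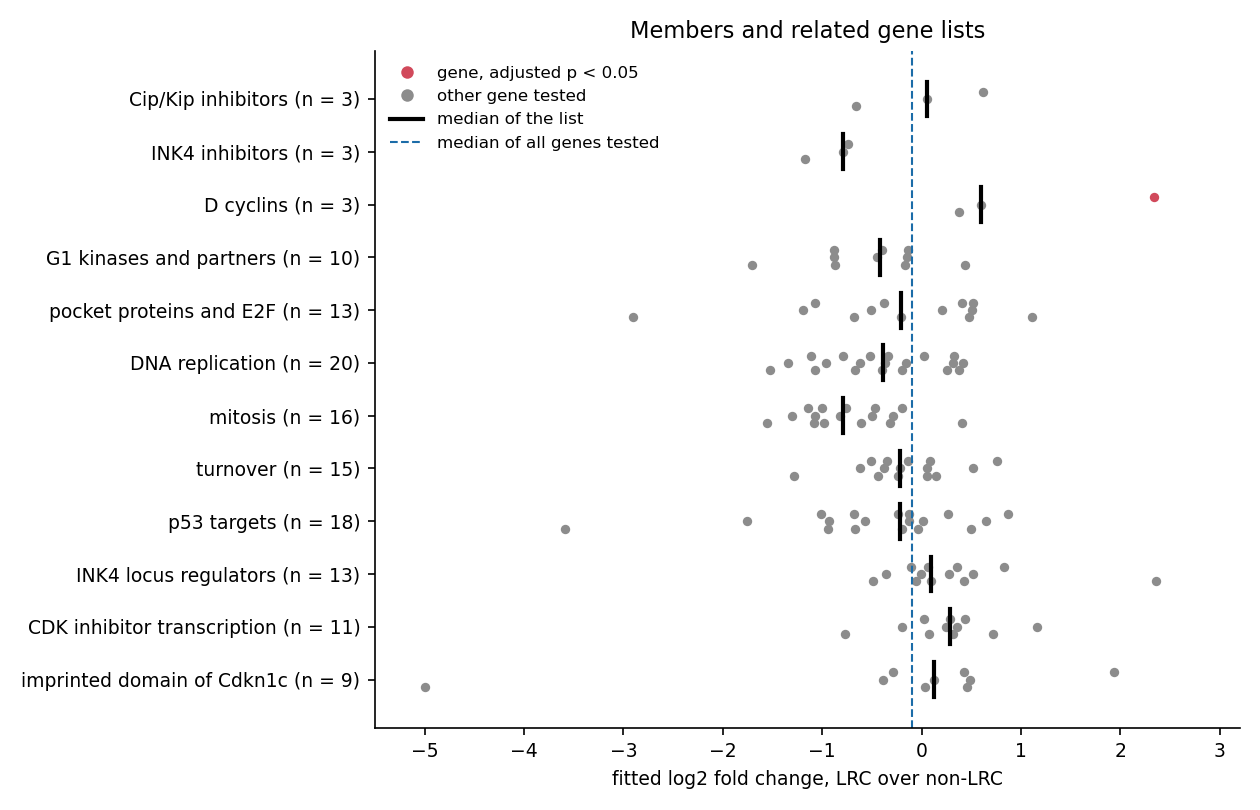
Each point is a tested gene, with its fitted log2 fold change of LRCs over non-LRCs on the x axis and its list on the y axis, black bars are list medians, and the dashed line is the median of all tested genes (-0.10). The red point at 2.34 is *Ccnd2*, the only gene of these 12 lists with an adjusted p below 0.05, and the medians of the INK4 and mitosis lists both stand at -0.79.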

How the data were processed

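RNA of sorted, CD45-negative cells was amplified with SMART-Seq and sequenced as single-end reads of 50 bases. Per the submitters' processing notes, the authors aligned reads with TopHat2 2.0.13 and Bowtie2 2.2.1 to mm10 (GRCm38) and counted reads with HTSeq. The annotation and strand setting are not given in the sources used here. The paper states that only reads mapped without ambiguity were counted. The deposited raw counts per gene were the input of all tests, and 2 further deposited tables (size-factor normalized and rlog values) were not used. The members and the gene lists were chosen with earlier results of these data known.

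Fits were run with edgeR 4.0.16 in R 4.3.3 (filterByExpr at 10 counts per library and 15 in total, TMM, experiment as a block, quasi-likelihood test, prior count 0.125, Benjamini-Hochberg). For log2 CPM a prior count of 2 was added. The authors' paired model was the reason for the block. To check the pairing, each library's deviation from its group mean was correlated with that of its partner, which gave r = 0.197, 0.288 and 0.336 in experiments 1, 2 and 3. Between LRC and non-LRC libraries of different experiments, r ran from -0.274 to 0.128. Chi-square values per gene between libraries of a group were 177 to 532, far above sampling noise. Total counts ran from 18943789 to 129559872, and the count of 0 was given a limit of 3 counts, which covers counting error only. Transcript lengths, coordinates and coding sequences were those of GENCODE vM21 and promoters those of RefSeq. The fits were tested on simulated data. Libraries are pools of littermates. With the block, p-values rest on how the difference of LRCs and non-LRCs within an experiment varied between experiments. The fit also shares information on this spread over all genes.

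Named genes were all members, of each pathway list the genes with an adjusted p below 0.05 or else the 2 with the smallest unadjusted p, and the 3 genes whose pattern was most like that of each member that passed. Of each marker list, the summed level and the most abundant gene were read: *Col2a1*, *Spp1* (hypertrophic), *Ibsp* (osteoblast), *Clu*, *Tnnt3* (muscle), *Cd68* (blood) and *Pecam1* (endothelial). Alternatives were DESeq2 1.42.0 and limma-voom 3.58.1 with the block, no block, DESeq2 size factors, library totals, 10 counts in every library, no filter, thinning, another prior count, and each experiment left out.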

Additional observations from a re-analysis of the deposited data

How the results depend on the processing

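The direction of 8 of the 9 tested members was the same under all 12 alternatives. *Cdkn1a* turned from 0.05 to -0.038 without experiment 2 (leaving out each experiment gave -0.038 to 0.182). Of the 12 alternatives, another prior count changes only the fold change, so its adjusted p had to equal that of the fit reported. *Ccnd2* stayed between 2.06 and 2.62 and passed under 11 of the 12 alternatives. The exception was the fit without the replicate block, in which its log2 fold change was 2.25 (adjusted p = 0.201), no member passed (0 against 1) and 1 gene in all passed. The block changed no other call of a member. *Cdkn1c* gave 0.29 to 1.10 when experiments were left out and passed without experiment 3, so that leaving out experiments gave 1 to 2 members that passed. Leaving out experiments also gave 0.19 to 0.57 for *Ccnd1* and -1.03 to -0.36 for *Cdkn1b*.

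The number of genes called was 176 in the fit reported, 1695 with DESeq2, 1361 with limma-voom, 751 with at least 10 counts in every library and 35 (without experiment 1) to 782 (without experiment 2) when experiments were left out. Of the 9 pathway lists, 0 genes were called in the fit reported, 20 with DESeq2, 16 with limma-voom, 6 with at least 10 counts in every library, 3 with library totals, 2 with each of DESeq2 size factors, no filter and thinning, and 0 to 6 when experiments were left out. The share of *Ccnd2* among the D cyclins differed by 5.72 percentage points per kilobase and by 9.64 without scaling by length, and that of *Ccnd1* by -5.98 and -9.29 (-10.2 to -1.59 when experiments were left out). The difference of the *Ccnd3* share turned from 0.255 to -0.356 without scaling by length and ran from -2.47 to 3.79 when experiments were left out. Beyond what the settings themselves change, the cause was not tested. *Cdkn2a* had at most 11 reads in any library, also in the deepest one, and could not be tested.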
